A study of Mus musculus with 28 samples.

Results

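The AP-1 family described here comprised 9 genes, Fos, Fosb, Fosl2, Jun, Junb, Jund, Batf, Atf3 and Maff, chosen by symbol from the 23420 gene symbols of the count files, and all 9 passed the filter on low counts. Levels are library-size-normalised counts (CPM). Total RNA was sequenced from CD4 T cells sorted from male mice aged 6 to 8 weeks. The KO mice carried Foxp3ΔCNS3-gfp, a reporter allele from which the Foxp3 enhancer CNS3 had been removed, and the WT mice carried the Foxp3-gfp reporter with that enhancer. Every library therefore came from a mouse with the reporter. Each genotype gave splenic Treg cells labelled aTreg, splenic Treg cells labelled rTreg (the titles do not expand a and r), thymic Treg cells, and thymic CD4 single-positive cells that were not Treg cells (CD4SP), with 4 KO and 3 WT libraries per population, 28 in all. The design text speaks of 2 littermates, and the labels do not tie libraries to animals, so p-values measure the spread between libraries, which may be partly technical.

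AP-1 is a family of dimers of basic leucine zipper proteins. Fos proteins bind DNA only after pairing with a Jun protein, whereas Jun proteins can also pair with one another. In T cells, signals from the antigen receptor through MAP kinases raise Fos and Jun within minutes to hours, and the dimers act with NFAT on cytokine genes. Batf pairs with Jun proteins and binds composite sites with Irf4 or Irf8, and it is known for its part in effector Treg cells of tissues. Atf3 is a stress-induced member that often represses, and Maff is a small Maf protein without a transactivation domain. Fos, Fosb, Jun, Junb and Atf3 are immediate early genes, which cell isolation itself can induce.

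The genes lie on different chromosomes, apart from Fos and Batf on chromosome 12 and Junb and Jund on chromosome 8. In the GENCODE annotation of GRCm38, Fos spans chr12:85473890-85477273 on the plus strand and Batf spans chr12:85686669-85709087 on the same strand. Jun, at chr4:95049034-95052222 on the minus strand, is a single exon. Antisense Junos covers 21.6% of the exonic bases of Jun, antisense Gm11175 covers 55.1% of those of Jund, and Prdx2 on the opposite strand covers 7.5% of those of Junb. The sources used here do not say whether strand was used in counting, so reads of these pairs cannot be told apart.

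The promoters of the members that moved together are shown because immediate early genes are known to be controlled through short elements near the start. Each line gives the 130 bases before the annotated start, 5′ to 3′ on the gene's strand, from RefSeq on GRCm38.p6. They cover chr12:85473760-85473889 (plus strand) for Fos, chr7:19310046-19310175 (minus strand) for Fosb, chr4:95052223-95052352 (minus strand) for Jun and chr8:84978749-84978878 (minus strand) for Junb. Capitals mark TGACG, the core of the cyclic AMP response element, and TGACATCA, a variant AP-1 site.
Fos: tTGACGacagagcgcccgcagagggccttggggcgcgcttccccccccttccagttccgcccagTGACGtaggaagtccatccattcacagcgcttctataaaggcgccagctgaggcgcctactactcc
Fosb: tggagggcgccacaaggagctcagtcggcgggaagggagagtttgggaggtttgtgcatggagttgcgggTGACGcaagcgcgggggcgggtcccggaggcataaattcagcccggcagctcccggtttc
Jun: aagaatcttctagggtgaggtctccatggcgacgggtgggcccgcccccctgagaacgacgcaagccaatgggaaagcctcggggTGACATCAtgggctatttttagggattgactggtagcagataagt
Junb: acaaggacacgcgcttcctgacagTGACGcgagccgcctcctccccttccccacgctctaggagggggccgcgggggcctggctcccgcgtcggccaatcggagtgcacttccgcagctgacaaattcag

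TGACG stood at -129 and -66 in Fos, at -60 in Fosb and at -106 in Junb (position of its first base before the start), and TGACATCA stood at -45 in Jun. Over the 32851 RefSeq windows of 250 bases before a start, both strands searched, TGACG was found in 17.8% and TGACATCA in 2.93%. The full cyclic AMP response element TGACGTCA, which contains TGACG, was found in 1.55% of windows, the AP-1 site TGACTCA in 4.46% and the CArG box of serum response factor in 1.47%. None of these 3 was found in the 250 bases before the start of Fos, Fosb, Jun or Junb. Sites further upstream were not searched, so this does not show that these genes lack them. One of the 3 start sites of Maff had TGACGTCA in its window, at -29. Members with other patterns carried the shorter elements too. On either strand, TGACG stood at -98 in Batf, at -7 in Atf3 and at -29 and -122 in windows of Maff. TGACATCA stood at -45 in a window of Maff, as in Jun. Fosl2 and Jund had neither. These matches describe letters in the sequence and do not show binding.

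Library totals over genes ran from 22037995 to 40754492 counts. The Treg marker Foxp3 reached 445.9 to 671 CPM in the 21 Treg libraries and 1.07 to 3.49 CPM in CD4SP libraries. Since the deletion removes an enhancer, Foxp3 counts do not check the genotype labels. Foxp3 in CD4SP cells averaged 1.44 ± 0.363 CPM in KO cells and 3.36 ± 0.131 CPM in WT cells (SD, n = 4 and 3; adjusted p = 8.27e-05, edgeR). CD4 T cell markers were high in every group, and their summed level averaged 3994 CPM in the lowest group. KO CD4SP library 2 stood apart in its group, with 222 CPM of 6 myeloid markers against 88.3 to 104 CPM in the other 3. In thymic Treg cells the same myeloid sum averaged 590.3 ± 235 CPM in KO libraries and 290.3 ± 56.1 CPM in WT libraries. All 6 markers were detected in every library of both, at 2.96 CPM or more. The share of reads lying in no gene was 42.3 to 45.0% in KO thymic Treg libraries and 46.3 to 49.3% in WT ones. Libraries numbered 3 and 4 stood apart from those numbered 1 and 2 in heat shock genes, and results that rest on KO libraries 3 and 4 are given with and without them.

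**Figure D1:**
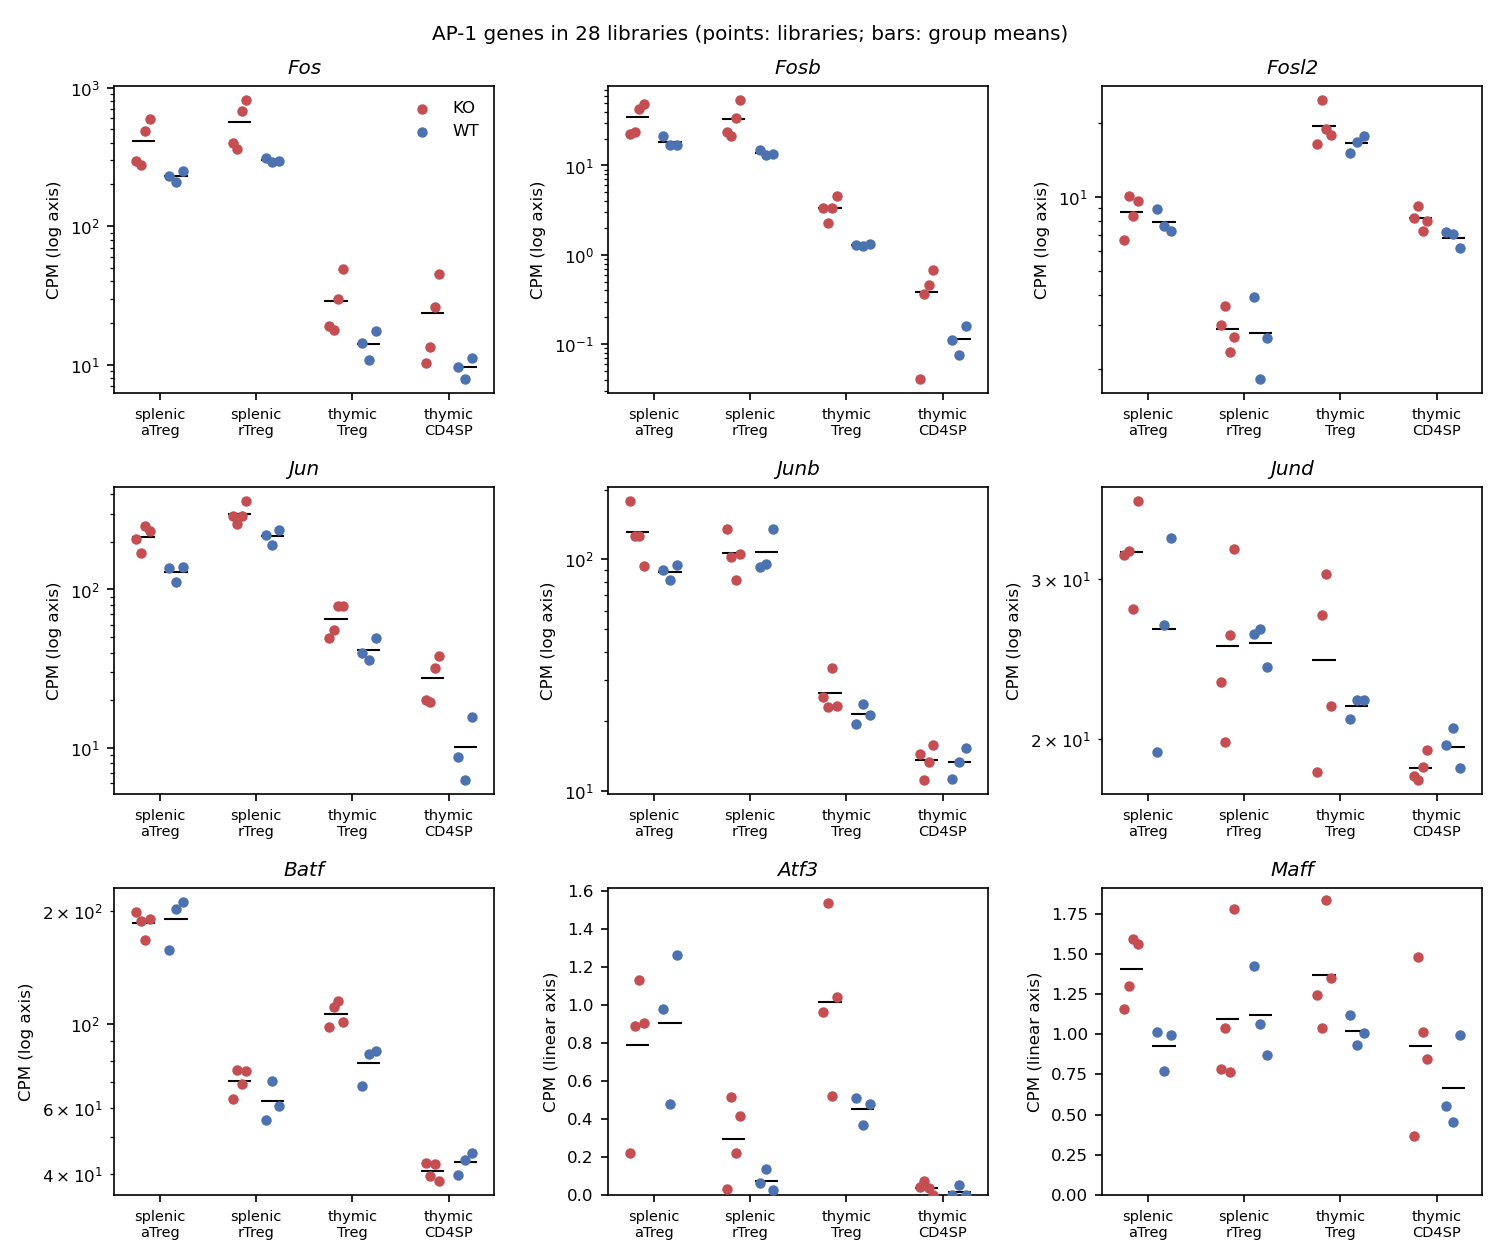
CPM of the 9 AP-1 genes in each library (points) with group means (bars), KO left of WT within each population; the y axis is logarithmic except for Atf3 and Maff. Fos lay above 200 CPM in every splenic library and below 50 CPM in every thymic one.

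Fos, Fosb, Jun and Junb were spleen-high genes. Fos was at 293, 275, 483 and 588 CPM in KO aTreg libraries, against 228, 208 and 249.96 CPM in WT aTreg libraries. In rTreg cells it was at 395, 362, 677 and 813 CPM in KO libraries, against 312, 288 and 294 CPM in WT libraries. In thymic Treg cells it was at 19.1, 17.8, 29.8 and 48.7 CPM in KO libraries, against 14.3, 10.7 and 17.6 CPM in WT libraries. Fos was thus far higher in spleen than in thymus in both genotypes, with no overlap of libraries. In CD4SP cells it was at 10.3, 13.5, 26.2 and 44.9 CPM in KO libraries, against 9.68, 7.89 and 11.2 CPM in WT libraries. These CD4SP values overlapped those of thymic Treg cells. Summed heat shock genes averaged 1815, 2010 and 1694 CPM in KO aTreg, rTreg and thymic Treg cells. In WT cells they averaged 1742, 1843 and 1609 CPM, with SDs of 163 to 300 CPM over both genotypes. Immediate early genes outside AP-1 summed to 3777, 4216 and 2397 CPM in these KO populations and 3500, 3932.5 and 2465 CPM in WT ones. The part of cell isolation in the difference between organs was not tested.

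Fosb, a close relative of Fos, was lower but was likewise higher in spleen than in thymus. Unlike Fos, it averaged no less in aTreg than in rTreg cells (KO 34.4 and 33.3 CPM, WT 18.4 and 13.8 CPM). It was at 22.3, 23.8, 42.8 and 48.8 CPM in KO aTreg libraries, against 21.4, 17.1 and 16.7 CPM in WT ones. In rTreg cells it was at 23.7, 21.4, 33.9 and 54.0 CPM in KO libraries, against 14.9, 13.0 and 13.6 CPM in WT ones. In thymic Treg cells it was at 3.32, 2.25, 3.31 and 4.59 CPM in KO libraries, against 1.30, 1.26 and 1.33 CPM in WT ones. Every KO library was above every WT library in these 3 populations. In CD4SP cells Fosb was close to the limit of detection, with 1, 10, 13 and 25 counts in KO libraries, against 3, 3 and 6 counts in WT libraries.

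Jun, the founding member and main partner of Fos, followed them. It was at 207, 170.0, 250.1 and 235 CPM in KO aTreg libraries, against 137, 111 and 139.5 CPM in WT ones. In rTreg cells it was at 289.9, 259, 292 and 362 CPM in KO libraries, against 221, 189.8 and 237 CPM in WT ones. In thymic Treg cells it was at 49.4, 55.4, 78.9 and 78.5 CPM in KO libraries, against 39.8, 36.0 and 49.1 CPM in WT ones. The closest pair of libraries there, KO 1 and WT 3, lay nearly level. In CD4SP cells Jun was at 19.95, 19.5, 32.1 and 38.2 CPM in KO libraries, against 8.72, 6.28 and 15.6 CPM in WT ones. Jun was the only member whose KO libraries lay above all WT libraries in each of the 4 populations.

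Junb, a Jun protein that can hold back Jun activity and that pairs with Batf, averaged 131 ± 35.3 CPM in KO aTreg cells and 88.7 ± 6.33 CPM in WT aTreg cells. Its KO aTreg libraries ran from 93.5 to 179 CPM, and the lowest of them lay just under the highest WT one, at 94.3 CPM. It averaged 106 ± 22.3 CPM in KO rTreg cells and 108 ± 23.7 CPM in WT rTreg cells. In the thymus it averaged 26.4 ± 5.15 CPM in KO Treg cells and 21.4 ± 2.15 CPM in WT Treg cells. In CD4SP cells the means were 13.7 ± 1.94 CPM in KO and 13.4 ± 2.04 CPM in WT. Jund, the most constitutive Jun protein, ranged from 18.0 to 36.6 CPM over all KO libraries and from 18.5 to 33.3 CPM over all WT libraries.

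Batf and Fosl2 had patterns of their own. Batf was at 199, 188, 167 and 189.9 CPM in KO aTreg libraries, against 158, 202 and 211 CPM in WT ones. In thymic Treg cells it was at 98.4, 111, 115 and 101.1 CPM in KO libraries, against 68.4, 83.4 and 85.0 CPM in WT ones. The thymic Treg groups did not overlap and the aTreg groups did. Batf averaged 70.8 ± 5.78 CPM in KO rTreg cells and 62.3 ± 7.52 CPM in WT rTreg cells. In CD4SP cells it averaged 40.8 ± 2.30 CPM in KO and 42.9 ± 2.85 CPM in WT. Fosl2, which encodes the Fos-related protein Fra-2, was highest in thymic Treg cells in both genotypes, at 19.5 ± 3.67 CPM in KO and 16.5 ± 1.36 CPM in WT. It was lowest in rTreg cells, at 2.91 ± 0.531 CPM in KO and 2.80 ± 1.06 CPM in WT. Its aTreg means were 8.68 ± 1.51 CPM in KO and 7.91 ± 0.881 CPM in WT, and its CD4SP means were 8.18 ± 0.791 CPM in KO and 6.82 ± 0.542 CPM in WT.

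Atf3 and Maff were at the low end. Atf3 had 5, 28, 27 and 26 counts in KO aTreg libraries, against 29, 13 and 38 in WT ones, and 31, 43, 13 and 37 counts in KO thymic Treg libraries, against 20, 11 and 19 in WT ones. In rTreg cells it had 1, 13, 6 and 13 counts in KO libraries, against 2, 4 and 1 in WT ones. In CD4SP cells it was all but absent, with 1, 2, 1 and 0 counts in KO libraries, against 0, 2 and 0 in WT ones. Maff lay between 0.368 and 1.84 CPM in KO libraries and between 0.454 and 1.43 CPM in WT libraries, with overlapping ranges in 3 of the 4 populations. In aTreg cells Maff was at 1.16, 1.30, 1.59 and 1.56 CPM in KO libraries, against 1.01, 0.773 and 0.997 CPM in WT ones, with no overlap.

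Dividing CPM by the length of the annotated exons allowed a comparison between genes. On this scale of CPM per kb, Batf led in both thymic populations, at 75.6 ± 5.55 in KO Treg cells and 56.1 ± 6.52 in WT Treg cells, and at 29.0 ± 1.64 in KO CD4SP cells and 30.5 ± 2.03 in WT CD4SP cells. In rTreg cells Fos led, at 239 ± 93.1 in KO and 127 ± 5.26 in WT. Jun came next in rTreg cells, at 94.2 ± 13.6 in KO and 67.7 ± 7.50 in WT. Junb and Batf were neighbours within their spread in WT rTreg cells, at 46.8 ± 10.3 and 44.3 ± 5.35. In aTreg cells the first place was held by Fos in KO (174 ± 64.4, with Batf at 132 ± 9.56) and by Batf in WT (136 ± 20.4, with Fos at 97.3 ± 8.85). The Fos and Batf values of KO aTreg cells differed by less than 1 SD of Fos. Jund is left out of this order because its annotated length differs between GENCODE and RefSeq.

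The populations were compared within each genotype in 1 fit of all libraries. In aTreg cells against rTreg cells, Batf and Fosl2 were higher in both genotypes. Batf rose by a log2 fold change of 1.39 ± 0.0913 (SE) in KO mice (adjusted p = 1.12e-12) and 1.61 ± 0.106 in WT mice (adjusted p = 1.65e-12). Fosl2 rose by 1.58 ± 0.178 in KO mice (adjusted p = 4.03e-08) and by 1.496 ± 0.205 in WT mice (adjusted p = 1.28e-06). In KO mice these 2 were the only members of 9 past the threshold, against 41.6% of all 13338 genes tested. In WT mice 4 members passed, against 37.9% of all genes, since Atf3 rose and Jun fell as well. Jun fell by 0.74 ± 0.233 in WT mice (adjusted p = 0.0128), and its value in KO mice was -0.48 ± 0.200 (adjusted p = 0.0552). For Atf3 the summed counts gave a ratio of 12.7 in WT mice (95% interval 5.90 to 32.7, exact, for counting error only; adjusted p = 0.000722), and its log2 value in KO mice was 1.43 ± 0.592 (adjusted p = 0.0539). Library numbers deviated together in these KO populations, and with the number as a block 6 members passed in KO mice, Fos (-0.44, adjusted p = 0.00144), Jun (-0.49, adjusted p = 0.00159), Jund (0.35, adjusted p = 0.0444) and Atf3 (1.497, adjusted p = 0.0391) as well. Without KO rTreg library 2, or without KO aTreg library 3, 4 members passed in KO mice. Without KO libraries 3 and 4, Fos (-0.43, adjusted p = 0.0494) and Jund (0.56, adjusted p = 0.0279) passed beside Batf and Fosl2. Without WT aTreg library 2 the fall of Jun in WT mice was no longer called (-0.65, adjusted p = 0.0613). Of 6 myeloid markers 5 rose in this comparison in either genotype, and their part in the Atf3 difference was not tested.

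Against thymic Treg cells, aTreg cells had more Fos, Fosb, Jun, Junb and Batf and less Fosl2 in both genotypes. Fos rose by 3.82 ± 0.366 in KO mice and 4.002 ± 0.432 in WT mice, and Fosb by 3.34 ± 0.290 in KO mice and 3.82 ± 0.363 in WT mice. Junb rose by 2.31 ± 0.172 in KO mice and 2.05 ± 0.197 in WT mice. Jun rose by 1.72 ± 0.208 in KO mice and 1.63 ± 0.241 in WT mice, and Batf by 0.81 ± 0.0898 in KO mice and 1.27 ± 0.105 in WT mice. Fosl2 fell by 1.16 ± 0.164 in KO mice and by 1.06 ± 0.189 in WT mice, the largest adjusted p of these values being 4.77e-05. Jund was past the threshold in KO mice (0.40 ± 0.145, adjusted p = 0.0285), which made 7 of 9 members against 41.9% of all genes, and not in WT mice (0.28 ± 0.167, adjusted p = 0.184), where 6 of 9 passed against 40.3%. Jund lost its call in KO mice without thymic Treg library 1 or 4 or aTreg library 4 (adjusted p = 0.130, 0.0848 and 0.0966) and without KO libraries 3 and 4 (0.49, adjusted p = 0.0529), and was called in WT mice without aTreg library 1 (0.47, adjusted p = 0.0288).

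Against thymic Treg cells, rTreg cells had more of the same immediate early members but less Batf. Fos rose by 4.28 ± 0.373 in KO mice and 4.38 ± 0.438 in WT mice, Fosb by 3.29 ± 0.289 in KO mice and 3.41 ± 0.361 in WT mice. Jun rose by 2.20 ± 0.210 in KO mice and 2.37 ± 0.245 in WT mice, and Junb by 2.01 ± 0.170 in KO mice and 2.33 ± 0.198 in WT mice. Fosl2 fell by 2.75 ± 0.178 in KO mice and by 2.56 ± 0.204 in WT mice. Batf fell by 0.59 ± 0.0905 in KO mice (adjusted p = 8.57e-06) and by 0.34 ± 0.104 in WT mice (adjusted p = 0.0136), and the WT libraries overlapped. Without thymic Treg library 2 or 3, or without rTreg library 1, the fall in WT mice was no longer called (adjusted p = 0.0596, 0.0757 and 0.0894). Atf3 fell by 1.79 ± 0.587 in KO mice (adjusted p = 0.0151) and, by summed counts, to a ratio of 0.158 in WT mice (95% interval 0.0604 to 0.350; adjusted p = 0.0166). Its call was lost without rTreg library 1 in either genotype, without WT rTreg library 3 and without KO thymic Treg library 2, at adjusted p of 0.0530 to 0.0879. Without KO libraries 3 and 4 its value in KO mice was -2.22 (adjusted p = 0.0729). Myeloid markers fell here as well, 6 of 6 in KO mice and 5 of 6 in WT mice. When the no-gene share entered the fit, neither Batf (-0.28, adjusted p = 0.282) nor Atf3 (-0.17, adjusted p = 0.960) was called in KO mice. In each genotype 4 members rose and 3 fell, against 42.9% of all genes called in KO mice and 30.6% in WT mice. The aTreg and rTreg comparisons share the thymic Treg libraries.

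Thymic Treg cells against CD4SP cells had more of 6 members in both genotypes and less of none. Fosb rose by 3.03 ± 0.413 in KO mice and 3.45 ± 0.654 in WT mice. Jun rose by 1.25 ± 0.212 in KO mice and 2.03 ± 0.261 in WT mice, Fosl2 by 1.26 ± 0.164 in KO mice and 1.28 ± 0.189 in WT mice. Batf rose by 1.38 ± 0.0926 in KO mice and 0.88 ± 0.106 in WT mice, and Junb by 0.95 ± 0.177 in KO mice and 0.67 ± 0.202 in WT mice. The largest adjusted p of these was 0.00717. The ratio of summed Atf3 counts was 30.1 in KO mice (95% interval 11.47 to 112) and 23.8 in WT mice (95% interval 6.25 to 202). Fos was not called, at 0.27 ± 0.349 in KO mice (adjusted p = 0.531) and 0.58 ± 0.435 in WT mice (adjusted p = 0.285). Library numbers deviated together in the 2 WT populations, and with the number as a block Fos was called in WT mice (0.57 ± 0.148, adjusted p = 0.00259), the seventh of 9 members. In the 2 KO populations 3 of 4 same-numbered pairs had deviations with r over 0.1. With the block Fos was called in KO mice too (0.34 ± 0.120, adjusted p = 0.0163), which is a hint from the data only. With Jund called in KO mice (0.39 ± 0.146, adjusted p = 0.0233), 7 of 9 members passed there against 56.5% of all genes, and 6 of 9 in WT mice against 48.3%. Jund's call was lost without KO thymic Treg library 2 or 3 (adjusted p = 0.0721 and 0.124). Without KO libraries 3 and 4, Jund was no longer called (0.34, adjusted p = 0.150) and Fos was (0.64, adjusted p = 0.00835). Myeloid markers also differed between these populations: 6 of 6 rose in KO mice and 5 of 6 in WT mice, and their part in the Atf3 difference was not tested.

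**Figure D2:**
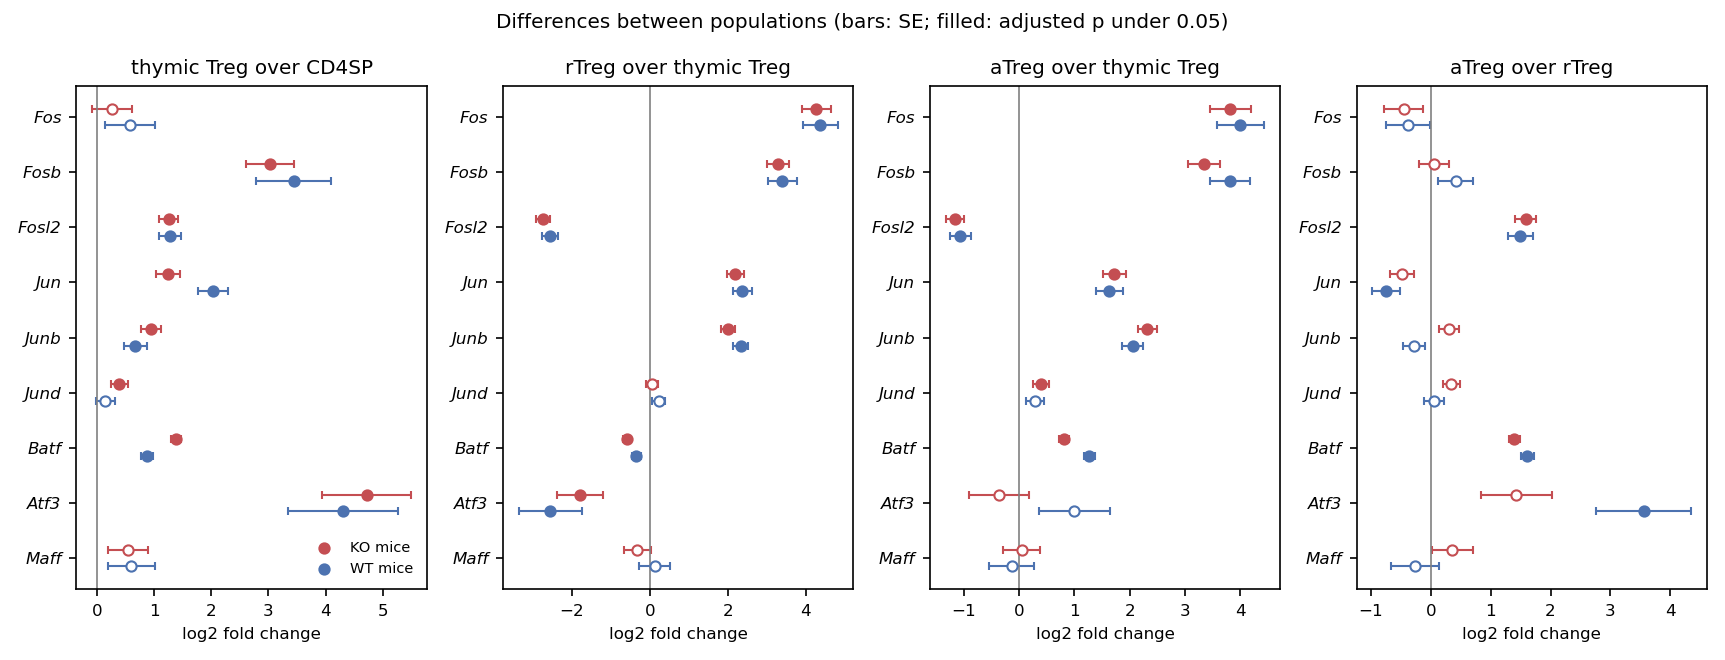
Log2 fold changes of the 9 genes between populations, with SE bars, in KO mice (upper point of each pair) and WT mice (lower point); filled points have an adjusted p under 0.05. Fos, Fosb, Jun and Junb were higher in both splenic populations than in thymic Treg cells, and Fosl2 was lower.

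Thymic Treg cells lacking the enhancer had more Batf and Fosb. Batf rose by 0.43 ± 0.0977 (adjusted p = 0.00654) and Fosb by 1.38 ± 0.363 (adjusted p = 0.0162), both higher in 4 of 4 KO libraries than in any WT library. These 2 of 9 members compare with 9.34% of all genes called in this comparison. Fos (1.02 ± 0.390, adjusted p = 0.0937) and Jun (0.65 ± 0.226, adjusted p = 0.0664) missed the threshold, although their KO libraries also lay above all WT libraries. So did those of Atf3 (1.16 ± 0.608, adjusted p = 0.223), which makes 5 of 9 members without overlap against 22.1% of all genes. Of these, Atf3, Fos and Jun were separated only narrowly. The closest Fos libraries, KO 2 and WT 3, lay at 17.8 and 17.6 CPM. The closest Atf3 libraries, KO 3 and WT 1, lay at 0.519 and 0.509 CPM, on 13 and 20 counts. The closest Jun libraries, KO 1 and WT 3, lay at 49.4 and 49.1 CPM. The values of Fosl2, Junb, Jund and Maff were 0.17 to 0.42. The median over the 9 members was 0.43, and over all genes 0.02. Without WT library 1, Batf was at 0.33 (adjusted p = 0.0653) and Fosb at 1.38 (adjusted p = 0.0679). Without WT library 2, Fosb had an adjusted p of 0.0633. When the no-gene share entered the fit as a covariate, Batf was at 0.21 (adjusted p = 0.709) and Fosb at 1.48 (adjusted p = 0.353), and 45 genes in all were called in place of 1246. Without KO libraries 1 and 2, which had the most myeloid counts, Batf was at 0.45 (adjusted p = 0.0285) and Fosb at 1.61 (adjusted p = 0.0300). Without KO libraries 3 and 4, Batf was at 0.40 (adjusted p = 0.0557), Fosb at 1.10 (adjusted p = 0.0150), Fos at 0.37 and Jun at 0.32. The summed level of 5 B cell markers was 47.8, 45.4, 48.5 and 50.1 CPM in KO libraries, against 33.4, 29.8 and 33.0 CPM in WT libraries, with no overlap and 0 of the 5 called. Pax5 among them was at 0 in all 3 WT libraries and at 0.0310 to 0.0844 CPM in KO libraries. The part of B cell and myeloid transcripts in these differences was not tested. In bulk RNA, more cells with a transcript and more transcript per cell cannot be told apart.

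In CD4SP cells the enhancer deletion went with more Jun. Jun rose by 1.43 ± 0.251 (adjusted p = 0.00487), higher in 4 of 4 KO libraries than in any WT library, and was the 1 member past the threshold against 0.195% of all genes. Fos was at 1.33 ± 0.409 (adjusted p = 0.382) and Fosb at 1.80 ± 0.787 (adjusted p = 0.736). Fosl2 also did not overlap (0.26 ± 0.180, adjusted p = 0.942), and 5.03% of all genes did not. The remaining members lay between -0.08 and 0.75, with Atf3 on 4 counts in KO and 2 in WT. Without WT library 1 the adjusted p of Jun was 0.0562, and without WT library 2 it was 0.0829. Without KO library 2, the one that stood apart, Jun was at 1.57 and was still called. Without KO libraries 3 and 4, Jun was at 0.96 (adjusted p = 0.0565) and Fos at 0.33. In a fit of the CD4SP libraries alone no gene was called, and Jun was at 1.43 (adjusted p = 0.483). Markers of Treg cells moved with genotype here too, with Ikzf2, Il2ra and Ctla4 higher and Foxp3 lower. Il2ra was at 21.6, 132.9, 21.9 and 17.3 CPM in KO libraries, against 8.38, 7.77 and 11.6 CPM in WT libraries, so that KO library 2 carried its mean. Ctla4 averaged 31.6 ± 10.2 CPM in KO cells and 19.7 ± 2.01 CPM in WT cells. These 3 markers rose and 1 fell among 5, and their part in the Jun difference was not tested.

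No member was called by genotype in splenic Treg cells by the main edgeR fit or by DESeq2. In aTreg cells, where 0.0300% of all genes were called, 4 members had an unadjusted p under 0.05, as did 6.73% of all genes. The values were 0.90 ± 0.280 for Fosb, 0.84 ± 0.355 for Fos, 0.74 ± 0.221 for Jun and 0.56 ± 0.176 for Junb, with adjusted p of 0.426 to 0.670. In rTreg cells, where 0.135% of all genes were called, 4 members had an unadjusted p under 0.05, as did 6.16% of all genes. These were Fosb (1.27 ± 0.284, adjusted p = 0.0639), Fos (0.91 ± 0.354, adjusted p = 0.632), Jun (0.48 ± 0.218, adjusted p = 0.731) and Atf3, on 33 counts in KO and 7 in WT (ratio 3.94, 95% interval 1.71 to 10.5, for counting error only). The log2 value of Atf3 was 1.93, and over the alternative settings its adjusted p was 0.470 or more. Its libraries overlapped, at 1, 13, 6 and 13 counts in KO and 2, 4 and 1 in WT. Without KO rTreg library 2, Fosb was called (1.43, adjusted p = 0.0491). Fosb in rTreg cells was also called by edgeR with no filter on low counts (1.26, adjusted p = 0.0140). The same held with the number as a block (0.96, adjusted p = 0.0149). Libraries did not overlap for Fos, Fosb, Jun and Maff in aTreg cells, against 8.12% of all genes, and for Fos, Fosb and Jun in rTreg cells, against 7.85%. Without KO libraries 3 and 4, Fos was at 0.31 in aTreg cells and 0.35 in rTreg cells, Fosb at 0.32 in aTreg cells and 0.71 in rTreg cells, and Jun at 0.54 in aTreg cells and 0.35 in rTreg cells. Batf showed no such separation, at -0.04 ± 0.0959 in aTreg cells and 0.18 ± 0.0983 in rTreg cells.

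**Figure D3:**
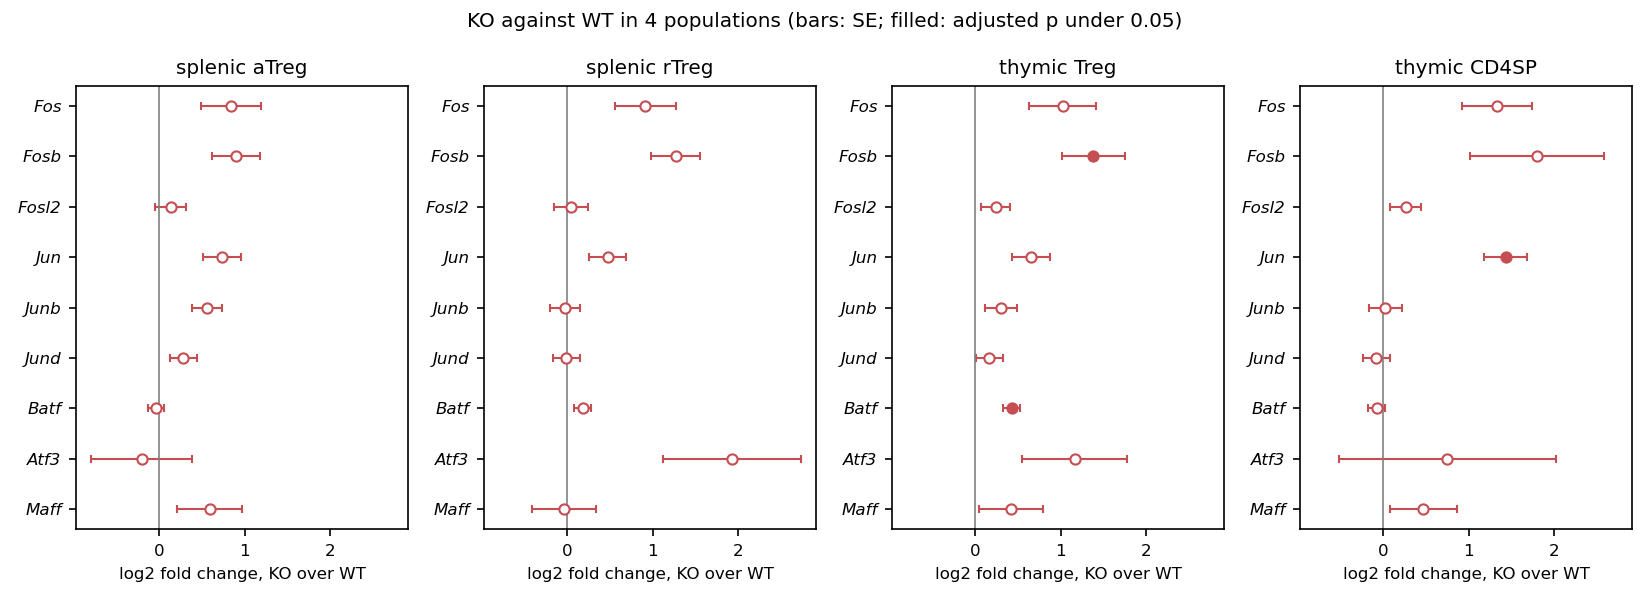
Log2 fold change of KO over WT for the 9 genes in each population, with SE bars; filled points have an adjusted p under 0.05. Fos, Fosb and Jun lay above 0 in all 4 populations, and Batf in thymic Treg cells, Fosb in thymic Treg cells and Jun in CD4SP cells were called.

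Whether the KO effect differed between populations was tested directly, and no member passed. Batf came closest, with a KO effect in thymic Treg cells larger by 0.50 ± 0.139 than in CD4SP cells (adjusted p = 0.0916) and by 0.47 ± 0.136 than in aTreg cells (adjusted p = 0.0966). Against rTreg cells the difference for Batf was 0.25 ± 0.138 (adjusted p = 0.562). The Jun effect in thymic Treg cells minus that in CD4SP cells was -0.78 ± 0.332 (adjusted p = 0.278). The numbers of members with an unadjusted p under 0.05 were 2 against CD4SP cells, 0 against rTreg cells and 1 against aTreg cells, beside 13.8%, 9.88% and 16.3% of all genes. DESeq2 called 1, 0 and 1, Batf in each case. All genes called were 0.615%, 0.0300% and 0.847% in these comparisons.

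Within the KO groups, Fos, Fosb and Jun varied with the library number in the titles. KO libraries 3 and 4 were the 2 highest of all 7 libraries in 4 of 4 populations for Fos and for Jun, and in 3 of 4 for Fosb. For Jun in rTreg cells, KO libraries 3 and 1 lay nearly level, at 292 and 289.9 CPM. The share of all genes with this order of libraries was not taken, so it is not known to be particular to these members. Fos in KO library 4 was 2.57 times the WT mean in aTreg cells, 2.73 times in rTreg cells, 3.43 times in Treg cells of the thymus and 4.68 times in CD4SP cells. In KO library 1 the same ratios were 1.28, 1.33, 1.35 and 1.07. Fosl2, Junb, Jund, Batf and Atf3 had KO libraries 3 and 4 on top in 0 of 4 populations, and Maff in 2. The labels say that cells were sorted together and libraries made in parallel, and give no meaning to the numbers.

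**Figure D4:**
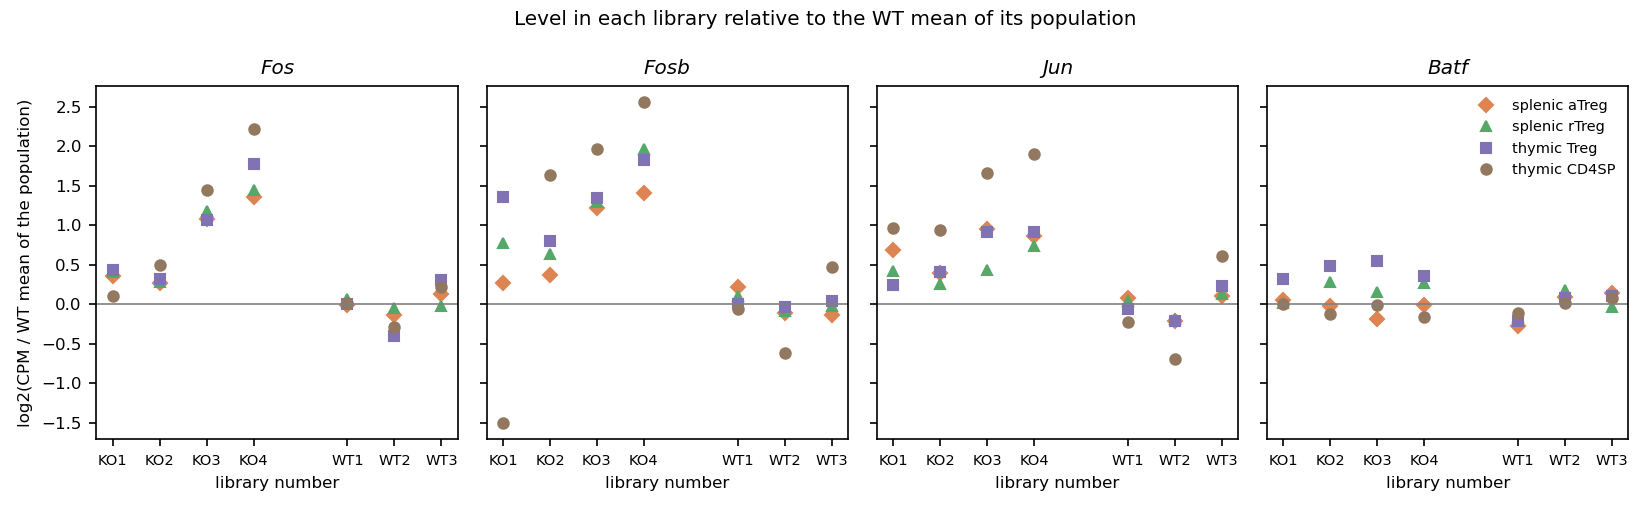
Level in each library relative to the WT mean of its population (log2 of the CPM ratio, y axis) by genotype and library number (x axis), for Fos, Fosb, Jun and Batf, with a symbol per population. KO libraries 3 and 4 lay highest for Fos and Jun in all 4 populations; Batf showed no such step.

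Genes known to respond to cell isolation were read beside the members. A list of 10 heat shock genes, among them Hspa1a, Hspa1b and Dnajb1, separated the library numbers in both genotypes. Its mean log2 level was higher in libraries 3 and 4 than in libraries 1 and 2 in 8 of 8 groups. Among the members, Jun showed this step in 8 of 8 groups, Fos in 7, Fosb in 5, Jund in 4, Junb, Batf and Maff in 3, Atf3 in 2 and Fosl2 in 1. In WT groups library 3 alone stood for numbers 3 and 4. How many of all genes showed this step was not counted, so the counts of the members cannot be set against other genes. By genotype, 0 of the 10 heat shock genes were called in any of the 4 populations, and their median log2 fold change of KO over WT was 0.15 in aTreg and in rTreg cells, 0.12 in Treg cells of the thymus and 0.04 in CD4SP cells. Of 17 other immediate early genes, Klf6, a zinc finger factor, rose in aTreg, rTreg and thymic Treg cells. Mcl1, a survival factor of the Bcl2 family, fell in thymic Treg cells (adjusted p = 0.0185), and none of the 17 was called in CD4SP cells. Klf6 averaged 478 ± 45.2 CPM in KO aTreg cells and 328 ± 42.8 CPM in WT ones (adjusted p = 0.0273), and 574 ± 91.9 CPM in KO rTreg cells and 376 ± 30.0 CPM in WT ones (adjusted p = 0.00331). Thymic Treg cells had Klf6 at 165 ± 6.29 CPM on average in KO libraries and 133 ± 1.38 CPM in WT libraries (adjusted p = 0.0475).

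Since 2 of 4 KO libraries and 1 of 3 WT libraries per population carried the numbers 3 and 4, KO over WT was also taken within each set of numbers. Fos was higher in KO by 1.26 to 1.48 times within numbers 1 and 2 and by 2.14 to 3.17 times within numbers 3 and 4, over the 4 populations. Fosb was higher by 1.20 to 2.18 times within numbers 1 and 2 and by 2.73 to 3.54 times within numbers 3 and 4. Jun was higher by 1.33 to 2.63 times within numbers 1 and 2 and by 1.38 to 2.26 times within numbers 3 and 4. All 8 ratios of each of these genes were above 1, with 2 KO and 2 WT libraries in the first set and 2 KO and 1 WT in the second, and were not tested within a set. Of the other members, Fosl2 was above 1 in 7 of 8 ratios, Junb and Maff in 6, Jund and Batf in 5, and Atf3 in 5 of 7. The share over all genes was not taken. Same-numbered libraries mostly deviated together across populations, so the ratios of a gene are not independent. With the set of numbers as a term in the fit, a choice made after these values were seen, Fos (0.83, adjusted p = 0.0310) and Jun (0.56, adjusted p = 0.0125) were called in thymic Treg cells beside Batf and Fosb, and Fosb was called in rTreg cells (1.10, adjusted p = 0.0333). With the level of the heat shock list as a covariate, Fosb (0.96, adjusted p = 0.0351) and Batf (0.39, adjusted p = 0.0176) stayed called in thymic Treg cells and Jun (1.12, adjusted p = 0.00388) in CD4SP cells. That covariate moved Fos to -0.09 in aTreg cells and -0.04 in rTreg cells, and Jun to 0.24 in aTreg cells and -0.01 in rTreg cells. The part of cell isolation in these differences was not tested.

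Deviations of each library from its group mean (log2 of CPM plus 1) are given within each set of numbers, because the 2 sets form separate clusters. The heat shock list and Fos had a Pearson r of 0.28 over the 16 libraries numbered 1 and 2 and of -0.14 over the 12 numbered 3 and 4. These values leave out the mean step between the sets. Because deviations were taken from the mean of the whole group, they still carry differences between groups in the size of that step. The same holds for the other r values given here. For Jun r was -0.11 and 0.00, for Fosb 0.51 and 0.30, and for Batf 0.13 and 0.33. Fos and Fosb deviated together within both sets, with r of 0.69 and 0.63, and Fos and Jun had r of 0.57 and 0.32. Jund and Batf had r of 0.45 and 0.70. These values describe libraries that share depth and preparation and carry no p.

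**Figure D5:**
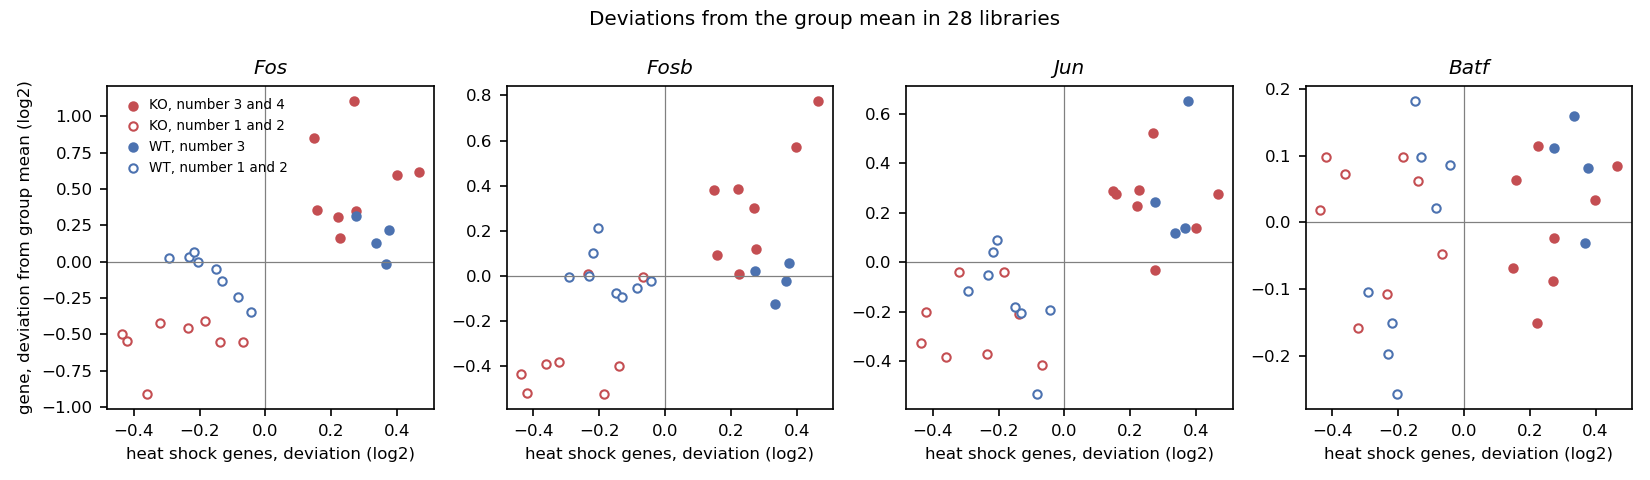
Deviation of each library from its group mean (log2) for Fos, Fosb, Jun and Batf (y axes) against the mean deviation of the 10 heat shock genes (x axis); filled points are libraries numbered 3 and 4, open points those numbered 1 and 2. All filled points lay right of 0 and all open points left of it, and Batf was higher in numbers 3 and 4 in 3 of 8 groups.

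Related genes were read as lists beside the members. Of 15 tested relatives among other basic leucine zipper genes, 2 were called by genotype in thymic Treg cells, where 9.34% of all genes were. Maf, a large Maf protein of effector T cells, was at 70.3 ± 8.75 CPM in KO cells and 41.8 ± 5.28 CPM in WT cells (adjusted p = 0.00104), and Bach2, a repressor that competes with AP-1 for its sites, at 116 ± 7.27 CPM in KO cells and 152 ± 4.66 CPM in WT cells (adjusted p = 0.00352). None of the 15 was called in the other 3 populations, where 0.0300 to 0.195% of all genes were. Of 18 genes on the MAP kinase route to AP-1, 3 fell in KO thymic Treg cells and none rose, against the same 9.34% of all genes. Rasgrp1, an exchange factor that activates Ras below the T cell receptor, averaged 219.9 ± 17.3 CPM in KO cells and 289 ± 8.60 CPM in WT cells (adjusted p = 0.00115). Elk4, a ternary complex factor, averaged 53.6 ± 5.67 CPM in KO cells and 71.0 ± 3.97 CPM in WT cells (adjusted p = 0.00888). Mapk8, which encodes the Jun kinase JNK1, averaged 25.5 ± 0.656 CPM in KO cells and 32.5 ± 1.55 CPM in WT cells (adjusted p = 0.0119). None of the 18 was called by genotype elsewhere, against the same 0.0300 to 0.195% of all genes.

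Of 5 partners of AP-1 (Irf4, Irf8 and 3 NFAT genes), none was called by genotype in Treg cells, against 0.0300 to 9.34% of all genes. In CD4SP cells Irf8, which binds with Batf and Jun, was at 5.86 ± 2.09 CPM in KO and 3.06 ± 0.274 CPM in WT (adjusted p = 0.0309). KO CD4SP library 2, which stood apart in myeloid markers, was also the highest of its group in B cell and dendritic markers. Summed B cell markers reached 26.6 CPM in this KO group, with a median of 6.40 CPM. The part of such transcripts in the Irf8 difference was not tested. Between WT populations, Irf4 averaged 120.3 ± 14.8 CPM in aTreg cells, 71.9 ± 13.7 CPM in rTreg cells, 81.0 ± 7.49 CPM in Treg cells of the thymus and 34.6 ± 0.813 CPM in CD4SP cells. Irf4 rose in aTreg cells over rTreg cells (adjusted p = 2.97e-05) and in thymic Treg cells over CD4SP cells (adjusted p = 6.00e-09). Among 12 other genes induced by the T cell receptor, Tnfrsf4, which encodes the costimulatory receptor OX40, rose in KO thymic Treg cells and Cd40lg fell, 2 of 12 against that 9.34%. Tnfrsf4 averaged 1745 ± 99.96 CPM in KO cells and 1403 ± 8.93 CPM in WT cells (adjusted p = 0.00767), and Cd40lg 20.6 ± 1.81 CPM in KO cells and 29.9 ± 2.26 CPM in WT cells (adjusted p = 0.00228). The 17 other immediate early genes went mostly with the spleen: 12 rose and 2 fell in aTreg cells over thymic Treg cells in either genotype, and in rTreg cells 10 rose and 1 fell in KO mice and 11 rose and 2 fell in WT mice. Of all genes, 41.9% in KO and 40.3% in WT mice were called in the aTreg comparison, and 42.9% in KO and 30.6% in WT mice in the rTreg comparison. In WT mice Ppp1r15a, a phosphatase regulator of the stress response, rose by 2.53 ± 0.148 in aTreg cells (adjusted p = 7.11e-14) and by 3.13 ± 0.151 in rTreg cells (adjusted p = 8.49e-15) over thymic Treg cells.

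Among tested genes with a mean of 8 CPM or more, those whose log2 level was most like Fos over the 28 libraries were Ppp1r15a (Pearson r = 0.98), Klf4 (0.97) and Fosb (0.97). Fosb was most like Klf4 (0.99) and Klf6 (0.98), Jun most like Klf6 (0.96) and Tasp1 (0.96), and Junb most like Socs3 (0.96). Batf was most like Rilpl2, Ccr3 and Ubl3 (0.98 each), and Fosl2 most like Pmepa1 (0.96), with Elk3 next at 0.87. Jund reached 0.82 with S100a13, and Maff no more than 0.66, with Tmem97. Atf3 was most like Odc1 (0.87), Cd86 (0.87) and Cst3 (0.86), of which Cst3 is among the myeloid markers. The libraries share populations and preparation, so these values describe patterns and carry no p.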

How the data were processed

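Each deposited file holds the counts that the authors obtained for every gene symbol in 1 library, not normalised. TRIzol extraction, SMART amplification and paired-end sequencing are given per the labels' protocols. Per the submitters' processing notes, Trimmomatic, STAR, HTSeq and mm10 were used, with versions, settings and strand not given in the sources used here. Lines that name no gene stayed out of library sizes and tests, and 42.3 to 49.7% of reads lay in no gene. Groups and library numbers came from the titles. No 2 libraries of a group agreed within sampling noise (lowest chi-square per degree of freedom 7.31). CPM used TMM-scaled totals (edgeR 4.0.16, R 4.3.3). Genes kept by filterByExpr (13338) were tested with edgeR's quasi-likelihood F test in 1 fit of 28 libraries with 8 group means (20 residual degrees of freedom), adjusted by Benjamini-Hochberg at 0.05 over all genes tested. SE was the log2 fold change divided by the square root of F. The fit was tested on simulated data. The numbers were taken as pairing libraries where the deviations of every same-numbered pair had r over 0.1: 2 of 12 comparisons met this, WT thymic Treg against CD4SP (r of 0.110 to 0.254) and KO aTreg against rTreg (0.203 to 0.369). This was decided for each comparison after the blocked values had been computed. Intervals of count ratios were exact conditional binomial ones and cover counting error only. Alternatives were other size factors, no filter, fits of single contrasts, a replicate block, a heat shock covariate, other pseudocounts, DESeq2 1.42.0, each library left out, and 4 added after seeing the data. All members were named. From each related list at most the 3 genes with the smallest p past the test are named; the Treg markers beside Jun, and Irf4 by level, are exceptions chosen after their values were seen. For likeness the 3 genes with the highest r were taken. The members and lists were chosen with earlier results of these data known. Positions and exon lengths came from GENCODE M21 on GRCm38, promoters from RefSeq.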

Additional observations from a re-analysis of the deposited data

How the results depend on the processing

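Of the 1942 alternative values planned for single members, 1877 kept their direction and side of the threshold, 20 lost a call and 45 gained one. Of 432 added later, 410 kept both, 13 lost a call and 9 gained one. No called value changed sign, while some values near 0 did. Counts of members called that moved by more than 1.5 times were these, and the cause was not tested where none is named. For KO over WT, aTreg cells stayed at 0 in every setting. In rTreg cells the count was 1 in place of 0 with no filter, with the replicate block and with the library numbers as a term. In thymic Treg cells it was 4 in place of 2 with the block and with the library numbers, 1 without KO libraries 3 and 4, and 0 with the no-gene share as a covariate. In CD4SP cells it was 2 in place of 1 with the block, and 0 in the fit of fewer libraries (contrast alone) and without KO libraries 3 and 4, where Jun was at 0.96 (adjusted p = 0.0565). KO aTreg over rTreg gave 4 in place of 2 in the fit of the contrast alone, by DESeq2, with the library numbers and without KO libraries 3 and 4, then 5 with the heat shock covariate and 6 with the block. The difference of KO effects gave 2 with the block and 1 by DESeq2 against CD4SP cells, and 1 with each against aTreg cells, in place of 0. Smaller moves included 3 in place of 2 in thymic Treg cells, Jun being gained, with no filter (adjusted p = 0.0404), in the fit of the contrast alone (0.0374), without KO thymic Treg library 1 (0.0467) and without libraries 1 and 2 (0.0411). With the block and in the fit of the contrast alone, WT aTreg over rTreg gave 6 in place of 4, Fos and Fosb being gained, and WT thymic Treg over CD4SP gave 7 in place of 6, Fos being gained. With the block KO thymic Treg over CD4SP gave 8 in place of 7 (Fos at 0.34, adjusted p = 0.0163). Over all alternatives the genes called in all numbered 0 to 13 in aTreg cells (4 as reported), 5 to 48 in rTreg cells (18), 45 to 1699 in thymic Treg cells (1246) and 0 to 127 in CD4SP cells (26). For the differences of KO effects they numbered 3 to 318 against CD4SP cells (82), 0 to 62 against rTreg cells (4) and 13 to 344 against aTreg cells (113). In KO mice, leaving out libraries 3 and 4 gave 3476 for aTreg over rTreg (5555), 3536 for rTreg over thymic Treg (5724, and 1340 with the no-gene share) and 3690 for aTreg over thymic Treg (5587). Leaving out 1 library gave 0 to 3 members in thymic Treg cells, 0 to 1 in CD4SP and rTreg cells, 2 to 4 for KO aTreg over rTreg and 0 to 1 for the difference against aTreg cells (1 without WT aTreg library 1). Outside the 2 comparisons in which the numbers were taken as pairing libraries, the block values are a hint from the data only. Same-numbered libraries of a genotype had deviations with r of -0.01 to 0.37, above 0.1 in 31 of 42 pairs, and 27 of 28 libraries were most like one of their own number. Precision is limited by 3 or 4 libraries a group and, for Atf3, Maff and Fosb in CD4SP cells, by low counts.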
